A study of Mus musculus with 6 samples.

Results

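The circadian clock genes examined here are Per1, Per2, Per3, Cry1, Cry2, Nr1d1, Nr1d2, Dbp, Tef and Clock. They were taken from the count table by gene symbol, each symbol matched 1 row, and they are 10 of its 56941 genes. All 10 were among the 32149 genes that passed edgeR's filter on low counts. The libraries were made from total RNA of hair follicle stem cells (HFSCs), sorted by FACS as CD34+ and α6-integrin+ cells from dorsal skin of female mice at postnatal day (PD) 68. The group labelled WT (n = 3 biological replicates) was K14CreER-/- Dab2 fl/fl, and the group labelled Dab2-cKO (n = 3) was K14CreER+/- Dab2 fl/fl, on strain B6;129S4-Dab2tm1Cpr/J. Both groups thus carried the floxed Dab2 alleles, and by the study's methods both were given tamoxifen at 75 mg/kg for 5 days. The study's histology placed both genotypes at PD 68 in the second telogen, the resting phase of the hair cycle. In the libraries labelled WT, markers of proliferation and of the matrix, hair shaft and inner root sheath were higher (values below). Whether the sorted cells of both groups were at the same stage was not tested. The K14 promoter that drives Cre is active in basal keratinocytes of the epidermis and follicle, and not in dermal cells. The time of day at which the skin was taken is not given in the sources used here, and the skin stayed in trypsin overnight before the sort.

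The libraries held 7040032 to 11696457 counts. Dab2, the targeted gene, had normalized counts of 338, 332 and 309 in the libraries labelled WT and of 1434, 1300 and 1390 in those labelled Dab2-cKO, so the targeted gene was higher where the label names its deletion. By qPCR, the study reported lower Dab2 mRNA in the epidermis of Dab2-cKO mice, the opposite direction. The cause of this discrepancy was not tested. Genotypes are given as the libraries are labelled, and every direction below depends on these labels. To make libraries comparable, each count was divided by its library's TMM-corrected size and brought to the average size, which gives the normalized counts used throughout.

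In the molecular clock, CLOCK and its partner BMAL1 (the product of Arntl) bind E-boxes in DNA and activate the Per and Cry genes, whose proteins then repress CLOCK and BMAL1. The same pair activates Nr1d1 and Nr1d2, which encode the nuclear receptors REV-ERBα and REV-ERBβ, repressors of Arntl and Nfil3, and also Dbp and Tef, which encode activators acting at D-boxes. In skin, the clock is known to run in epidermal and follicular keratinocytes and in dermal fibroblasts, and to influence when HFSCs respond to activating signals.

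Of the 10 clock genes, 9 were higher in the Dab2-cKO libraries and 1, Cry1, did not pass the test (edgeR's quasi-likelihood test, Benjamini-Hochberg adjusted p under 0.05 over all genes tested). The 9 genes rose by log2 fold changes of 0.61 (Clock) to 1.53 (Dbp), with standard errors (SE) of 0.08 to 0.12. Over all genes tested 16.8% were higher, and among genes averaging 100 normalized counts or more, as all 10 clock genes do, 37.6% were higher. No clock gene was lower, where the same shares were 11.5% and 22.8%; none was lower at an unadjusted p under 0.05, and DESeq2 also gave 0. The median log2 fold change was 1.22 over the 10 clock genes, -0.02 over all genes and 0.10 over genes averaging 100 or more. In the same 9 genes each Dab2-cKO library lay above each WT library, which held for 20.6% of all genes, and all 3 lay below for 17.7%. These shares include genes with low counts and were not worked out for genes averaging 100 or more. For any single gene an exact permutation test of 3 against 3 libraries cannot go below p = 0.1.

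**Figure D1:**
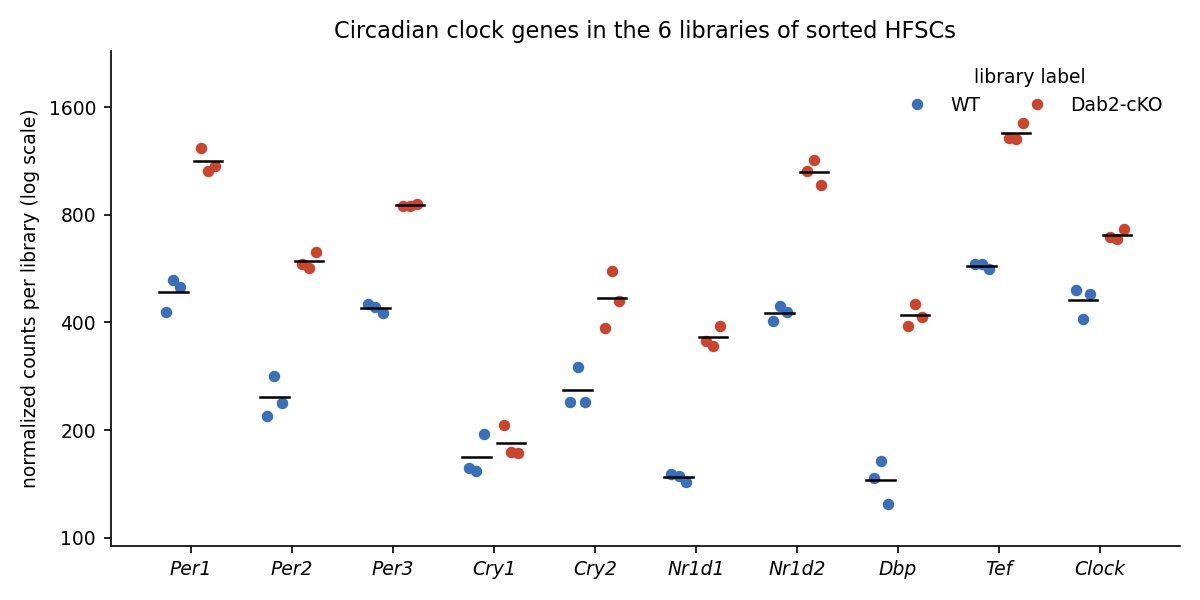
Normalized counts (log scale) of the 10 clock genes in each library, with 3 points per genotype as labelled and a line at each mean. The groups are separate in 9 genes, while the points of Cry1 overlap (154 to 195 in WT, 172 to 206 in Dab2-cKO).

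Genes of other cell types moved between the same groups. Summed CPM (counts per TMM-corrected library size) of 6 fibroblast markers lay at 10823 to 13088 in WT and at 37749 to 39846 in Dab2-cKO, with 6 of 6 genes higher. Skeletal muscle markers (5 of 5 higher) went from 1855 to 2149 up to 10168 to 10407, endothelial markers (5 of 5 higher) from 95.3 to 115 up to 378 to 383, and immune markers (5 of 6 higher) from 150 to 168 up to 686 to 715. Markers of the matrix, the hair shaft and the inner root sheath were lower in 9 of 9, at 23014 to 27701 in WT and 322 to 327 in Dab2-cKO, as were 5 of 5 melanocyte markers (277 to 301 and 78.0 to 83.1) and 6 of 6 proliferation markers (1003 to 1098 and 278 to 285). Of the 10 genes listed as bulge markers 7 were higher, Cd34, Itga6, Krt15, Krt14 and Krt5 among them, and Sox9, Lhx2 and Lgr5 were lower. The sums were 2031 to 2326 in WT and 3492 to 3595 in Dab2-cKO. Their largest entries were Krt14 (means of 6378 and 11472 normalized counts) and Krt5 (6918 and 10600). Both are keratins of basal keratinocytes in general, so these sums do not stand for the bulge alone. Of the sort markers, Cd34 was at 510 ± 53.2 and 1780 ± 35.6 normalized counts and Itga6 at 960 ± 41.5 and 1409 ± 47.8 (SD, n = 3 each). Differentiated epidermis markers were higher in 6 of 7 and lower in 1 (1300 to 1505 and 4980 to 5063), and 8 of 9 genes of the dissociation response, the early stress genes that enzymatic tissue digestion is known to induce, were higher (386 to 434 and 1091 to 1122). Mitochondrial genes took 13.0% to 14.4% of the counts in WT and 19.1% to 20.3% in Dab2-cKO. No listed marker was at 0 in all libraries. The part of these shifts in the clock gene values was not tested, and in bulk RNA more cells of a type and more RNA per cell cannot be told apart.

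The Period proteins are the inhibitory arm of the clock, and PER1 and PER2 are required for a self-sustained rhythm. Per1 (ENSMUSG00000020893, GRCm39 chromosome 11, 68986035 to 69002300) had normalized counts of 429, 526 and 504 in WT and 1229, 1061 and 1094 in Dab2-cKO. The lowest Dab2-cKO library was thus above the highest WT library by more than the range of either group. The log2 fold change of Per1 was 1.21 (SE 0.08, 95% interval 1.05 to 1.37, adjusted p by edgeR = 2.26e-21). Per2 (ENSMUSG00000055866, chromosome 1, 91343700 to 91387069) was counted at 219, 284 and 238 in WT and at 581, 568 and 630 in Dab2-cKO. Its values also stood apart, and its log2 fold change was 1.26 (SE 0.10, interval 1.06 to 1.45, adjusted p by edgeR = 3.47e-18). Per3 (ENSMUSG00000028957, chromosome 4, 151081373 to 151129140), which is dispensable for the core rhythm, had replicates closer together in Dab2-cKO than any other clock gene, with 450, 442 and 426 in WT and 846, 848 and 856 in Dab2-cKO. The difference in Per3 was 0.95 on the log2 scale (SE 0.08, interval 0.79 to 1.11, adjusted p by edgeR = 7.63e-17).

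The cryptochromes are the strongest repressors of CLOCK and BMAL1, and the paralogs gave different values here. Cry1 (ENSMUSG00000020038, chromosome 10, 84967560 to 85021252), whose RNA is known to peak later in the cycle than that of the Per genes, had 157, 154 and 195 normalized counts in WT and 206, 174 and 172 in Dab2-cKO. The groups overlapped, and the log2 fold change of 0.12 had a 95% interval of -0.14 to 0.39 (SE 0.13, adjusted p by edgeR = 0.578). The sign of Cry1 depended on the scaling, at -0.02 with upper-quartile scaling and -0.31 with library size only. Cry2 (ENSMUSG00000068742, chromosome 2, 92233894 to 92264474) was at 240, 300 and 239 in WT and 386, 556 and 459 in Dab2-cKO, the widest spread relative to the mean among the clock genes in Dab2-cKO. The groups did not overlap and Cry2 was higher by 0.84 on the log2 scale (SE 0.11, interval 0.62 to 1.06, adjusted p by edgeR = 9.56e-10).

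The REV-ERB genes rose by nearly equal log2 fold changes. Nr1d1 (ENSMUSG00000020889, chromosome 11, 98658752 to 98666188) had 151, 149 and 143 normalized counts in WT and 356, 344 and 390 in Dab2-cKO. This was a log2 fold change of 1.30 (SE 0.11, interval 1.07 to 1.53, adjusted p by edgeR = 9.12e-16). Of its exon bases 52.8% overlap genes annotated on the opposite strand, Thra and Gm31862, and the gene of origin of reads there is uncertain, since it is not given whether the counting used the strand. Thra itself, a thyroid hormone receptor gene, had 624 ± 24.0 and 756 ± 29.3 normalized counts (SD, n = 3 each), a log2 fold change of 0.28 (adjusted p by edgeR = 0.00338). Nr1d2 (ENSMUSG00000021775, chromosome 14, 4230545 to 4266624), whose exons overlap no other annotated exon, had 404, 446 and 429 in WT and 1058, 1139 and 971 in Dab2-cKO. Its log2 fold change was 1.31 (SE 0.08, interval 1.15 to 1.47, adjusted p by edgeR = 3.50e-23).

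DBP and TEF are transcription factors of the PAR bZIP family, and Dbp RNA is among the most strongly cycling in peripheral tissues. Dbp (ENSMUSG00000059824, chromosome 7, 45354512 to 45359627) was counted at 147, 164 and 124 in WT and 392, 450 and 415 in Dab2-cKO. It had the largest log2 fold change of the 10 genes, 1.53 (SE 0.12, interval 1.30 to 1.76, adjusted p by edgeR = 7.44e-19). Exons of Sphk2 on the opposite strand overlap 15.5% of its exon bases, and Sphk2 had 219 ± 12.7 and 254 ± 24.5 normalized counts (SD, n = 3 each). Tef (ENSMUSG00000022389, chromosome 15, 81686622 to 81711064) had 581, 581 and 565 in WT and 1310, 1299 and 1449 in Dab2-cKO. The groups were far apart, with a log2 fold change of 1.23 (SE 0.08, interval 1.08 to 1.38, adjusted p by edgeR = 2.70e-23), and 13.4% of the Tef exon bases overlap opposite-strand exons.

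Clock (ENSMUSG00000029238, chromosome 5, 76342860 to 76452846) encodes the DNA-binding activator, whose RNA cycles little in most tissues. It had 494, 409 and 481 normalized counts in WT and 695, 685 and 728 in Dab2-cKO. No library of the other group reached into either range, and the log2 fold change of 0.61 was the smallest of the 9 that rose (SE 0.08, interval 0.44 to 0.78, adjusted p by edgeR = 7.38e-09). With library size only it was 0.18 and did not pass (adjusted p by edgeR = 0.059). Exons on the opposite strand, those of Tmem165 among them, overlap 12.6% of the Clock exon bases.

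**Figure D2:**
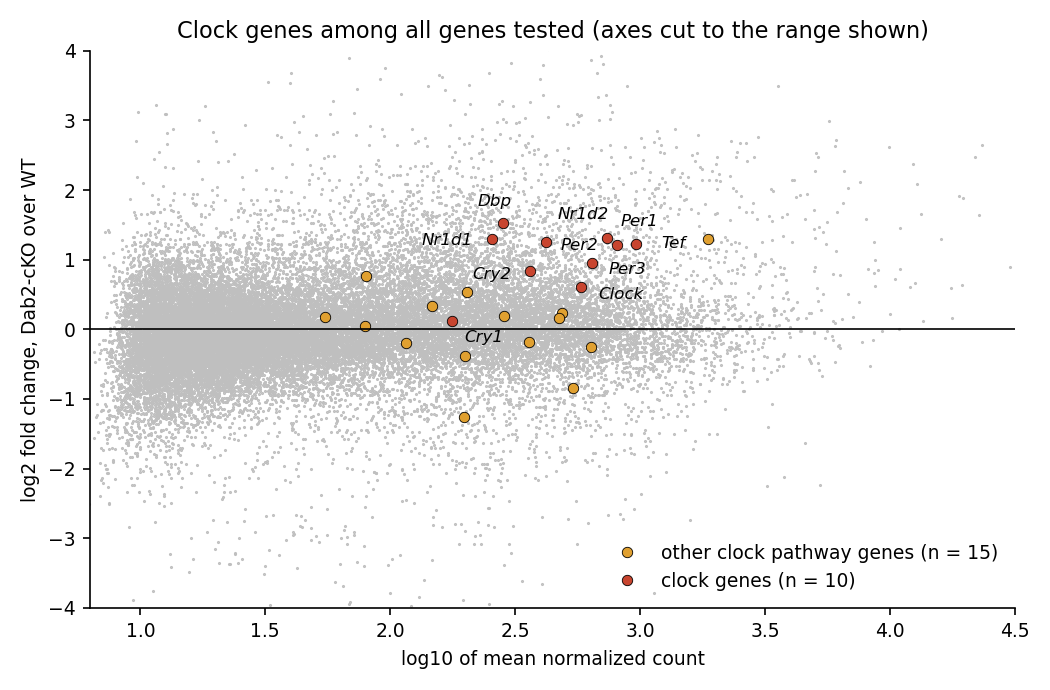
Log2 ratio of Dab2-cKO to WT (fold change) against the log10 of the mean normalized count, with grey points for all genes tested, red for the 10 clock genes and yellow for 15 other clock pathway genes. Axes are cut to the range shown; of the red points 9 lie between 0.61 and 1.53 and Cry1 lies near 0, while the yellow points lie on both sides, from -1.26 to 1.30.

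Levels were compared between genes per kb of annotated exon. In the WT libraries the order was Tef (69.7 ± 1.16 normalized counts per kb, SD, n = 3), Per1 (63.5 ± 6.68), Nr1d2 (47.1 ± 2.32), Nr1d1 (45.6 ± 1.39), Per3 (41.9 ± 1.19), Dbp (41.8 ± 5.84), Per2 (37.6 ± 5.11), Cry1 (33.9 ± 4.55), Cry2 (30.3 ± 4.03) and Clock (26.7 ± 2.66). Only the steps from Per1 to Nr1d2 and from Nr1d1 to Per3 were free of overlap between the 3 libraries of neighbouring genes. In Dab2-cKO the order ran from Tef (164 ± 10.1) and Per1 (147 ± 11.6) over Dbp (121 ± 8.41), Nr1d2 (117 ± 9.28), Nr1d1 (112 ± 7.30), Per2 (90.3 ± 4.98), Per3 (81.0 ± 0.534) and Cry2 (54.4 ± 9.91) to Clock (40.7 ± 1.33) and Cry1 (37.0 ± 3.83). There the neighbours Tef and Per1, Dbp and Nr1d2, Nr1d2 and Nr1d1, and Clock and Cry1 overlapped. For comparison, 1970 chemosensory receptor genes, which these cells are not known to use, had a median of 4.85 normalized counts per kb and a 95th percentile of 13.4, and each clock gene was above the latter in both groups. These levels depend on the exon models, which join the exons of all annotated transcripts.

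The promoter windows of the clock genes were read for the letters of clock elements. The part of these elements in the RNA differences was not tested. RefSeq windows (GRCm38.p6, 250 bases before to 50 after each start) were at hand for 9 of the 10 genes (not Per2). Each motif was searched on both strands. Elements outside these windows, or with other letters, were not searched for, so a window without a match does not show that a gene lacks the element. The E-box CACGTG, bound by CLOCK and BMAL1, occurs in windows of Per1, Cry1 and Tef (3 of 9 genes, against 8.09% of 27025 genes). The variant E′-box CACGTT occurs in Cry1, Cry2 and Nr1d1 (3 of 9, against 5.44%), and the D-box TTANGTAA in Per3 alone (1 of 9, against 2.72%), 205 and 158 bases before the start. No matches overlapped each other. Cry1, the gene that did not pass the test, holds both kinds of E-box, 60 and 79 bases before its start. The 250 bases before the start are shown for 5 genes, Per1 and Per3 for their E-box and D-boxes, Nr1d1 for its E′-box, and Cry1 beside Cry2 as paralogs with different values, with the matched letters in capitals, on the strand of the gene.
Per1, chr11:69098699-69098948, + strand: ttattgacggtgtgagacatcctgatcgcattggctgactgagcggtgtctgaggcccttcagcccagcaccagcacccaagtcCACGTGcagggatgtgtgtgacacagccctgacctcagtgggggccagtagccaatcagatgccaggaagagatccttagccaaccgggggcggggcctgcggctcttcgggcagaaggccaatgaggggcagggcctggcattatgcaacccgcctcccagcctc
Per3, chr4:151044666-151044915, - strand: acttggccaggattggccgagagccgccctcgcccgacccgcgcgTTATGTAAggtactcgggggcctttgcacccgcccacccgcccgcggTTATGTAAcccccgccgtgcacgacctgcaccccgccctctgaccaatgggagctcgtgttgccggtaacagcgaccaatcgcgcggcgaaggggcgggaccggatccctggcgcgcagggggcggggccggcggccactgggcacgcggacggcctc
Nr1d1, chr11:98775378-98775627, - strand: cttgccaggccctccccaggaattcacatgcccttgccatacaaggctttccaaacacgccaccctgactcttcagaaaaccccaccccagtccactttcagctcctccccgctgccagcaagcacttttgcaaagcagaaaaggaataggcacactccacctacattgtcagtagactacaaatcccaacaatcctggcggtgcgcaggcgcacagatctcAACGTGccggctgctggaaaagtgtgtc
Cry1, chr10:85185055-85185304, - strand: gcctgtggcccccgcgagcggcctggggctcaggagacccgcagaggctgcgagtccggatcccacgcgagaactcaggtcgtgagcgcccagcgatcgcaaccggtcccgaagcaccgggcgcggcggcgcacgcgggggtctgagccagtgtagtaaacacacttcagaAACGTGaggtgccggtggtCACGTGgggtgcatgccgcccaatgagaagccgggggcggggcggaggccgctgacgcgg
Cry2, chr2:92434070-92434319, - strand: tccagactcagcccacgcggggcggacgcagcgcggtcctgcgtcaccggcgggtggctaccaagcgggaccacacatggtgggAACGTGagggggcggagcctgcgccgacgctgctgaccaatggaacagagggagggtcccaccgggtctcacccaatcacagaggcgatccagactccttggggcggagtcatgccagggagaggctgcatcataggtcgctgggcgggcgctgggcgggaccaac

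The clock genes were set beside 15 other genes of the pathway, which are partners, competitors, kinases and other regulators of the clock. Of these 4 were higher, 4 lower and 7 did not pass the test, with a median log2 fold change of 0.16. Over all genes tested 16.8% were higher and 11.5% lower, and 37.6% and 22.8% among those averaging 100 normalized counts or more, so both counts lay near the background. Arntl (Bmal1), the partner of Clock, had 228, 222 and 226 normalized counts in WT and 141, 181 and 196 in Dab2-cKO. All 3 Dab2-cKO libraries were below, at a log2 fold change of -0.39 (SE 0.13, adjusted p by edgeR = 0.0139). The call was lost without Dab2-cKO replicate 1, where the log2 fold change was -0.27 (adjusted p by edgeR = 0.158). Npas2, which can stand in for Clock, was at 110, 56.9 and 69.2 in WT and 79.1, 78.2 and 83.9 in Dab2-cKO, with a log2 fold change of 0.05 (interval -0.36 to 0.45, adjusted p by edgeR = 0.905).

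Nfil3 encodes the repressor that competes with DBP and TEF for the D-box. It was counted at 258, 309 and 269 in WT and at 129, 107 and 113 in Dab2-cKO, a log2 fold change of -1.26 (SE 0.13, adjusted p by edgeR = 3.92e-13). Nfil3 thus fell while Dbp and Tef rose, and Hlf, the third PAR bZIP gene, was higher with 169, 166 and 162 in WT and 229, 238 and 251 in Dab2-cKO (log2 fold change 0.53, SE 0.12, adjusted p by edgeR = 0.000329). The ROR receptors activate Arntl at the elements where REV-ERBs repress it. Rora had 997, 1177 and 1076 normalized counts in WT and 2568, 2656 and 2788 in Dab2-cKO, a log2 fold change of 1.30 (SE 0.07, adjusted p by edgeR = 2.12e-25).

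The element of REV-ERB and ROR, TAGGTCA, occurs in no window of the 9 clock genes and in 2 of the 7 windowed genes among the named partners, Arntl and Nfil3 (against 2.97% of all genes). Stretches of 30 bases around it are shown for these genes on the strand of the gene, with the matched letters in capitals. In Arntl the match begins 31 bases into the transcript, and in Nfil3 it lies in reverse complement 12 bases before the start.
Arntl, chr7:113207529-113207558, + strand: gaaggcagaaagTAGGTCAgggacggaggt
Nfil3, chr13:52981040-52981069, - strand: tagcgcggcgctcggaacTGACCTActaac

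Among repressors of the E-box, Ciart, which encodes a repressor of CLOCK and BMAL1, had 64.6, 56.9 and 57.2 normalized counts in WT and 111, 89.7 and 103 in Dab2-cKO (log2 fold change 0.77, SE 0.19, adjusted p by edgeR = 0.000926), and its window holds 3 E-boxes. Bhlhe40 was at 469, 430 and 443 in WT and 531, 542 and 508 in Dab2-cKO, a log2 fold change of 0.24 (adjusted p by edgeR = 0.0309) that did not pass under 11 of 14 alternatives, DESeq2 among them, and turned to -0.19 with library size only. Without WT replicate 2, WT replicate 3 or any of the Dab2-cKO libraries its adjusted p was 0.0518 to 0.153. Bhlhe41 was at 111, 139 and 140 in WT and 151, 170 and 175 in Dab2-cKO, with a log2 fold change of 0.34 that did not pass (adjusted p by edgeR = 0.0742). The window of Bhlhe41 also holds an E-box. Thus 2 of the 7 windowed genes among the named partners, Bhlhe41 and Ciart, have the E-box, against 8.09% of all genes. The remaining genes that passed are named after their values were seen. The casein kinases that phosphorylate PER proteins were lower, Csnk1e at 691 ± 39.3 and 383 ± 22.3 normalized counts (SD, n = 3 each, log2 fold change -0.85, SE 0.09, adjusted p by edgeR = 2.03e-13) and Csnk1d at 692 ± 50.1 and 579 ± 23.8 (log2 fold change -0.26, SE 0.08, adjusted p by edgeR = 0.00898). Csnk1d shares 44.0% of its exon bases with opposite-strand genes, Slc16a3 among them. Slc16a3 was higher, at 70.7 ± 4.9 and 169 ± 18.4 normalized counts (SD, n = 3 each, log2 fold change 1.25, adjusted p by edgeR = 9.05e-10). Csnk1d lost its call without WT replicate 3 (log2 fold change -0.21, adjusted p by edgeR = 0.114).

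**Figure D3:**
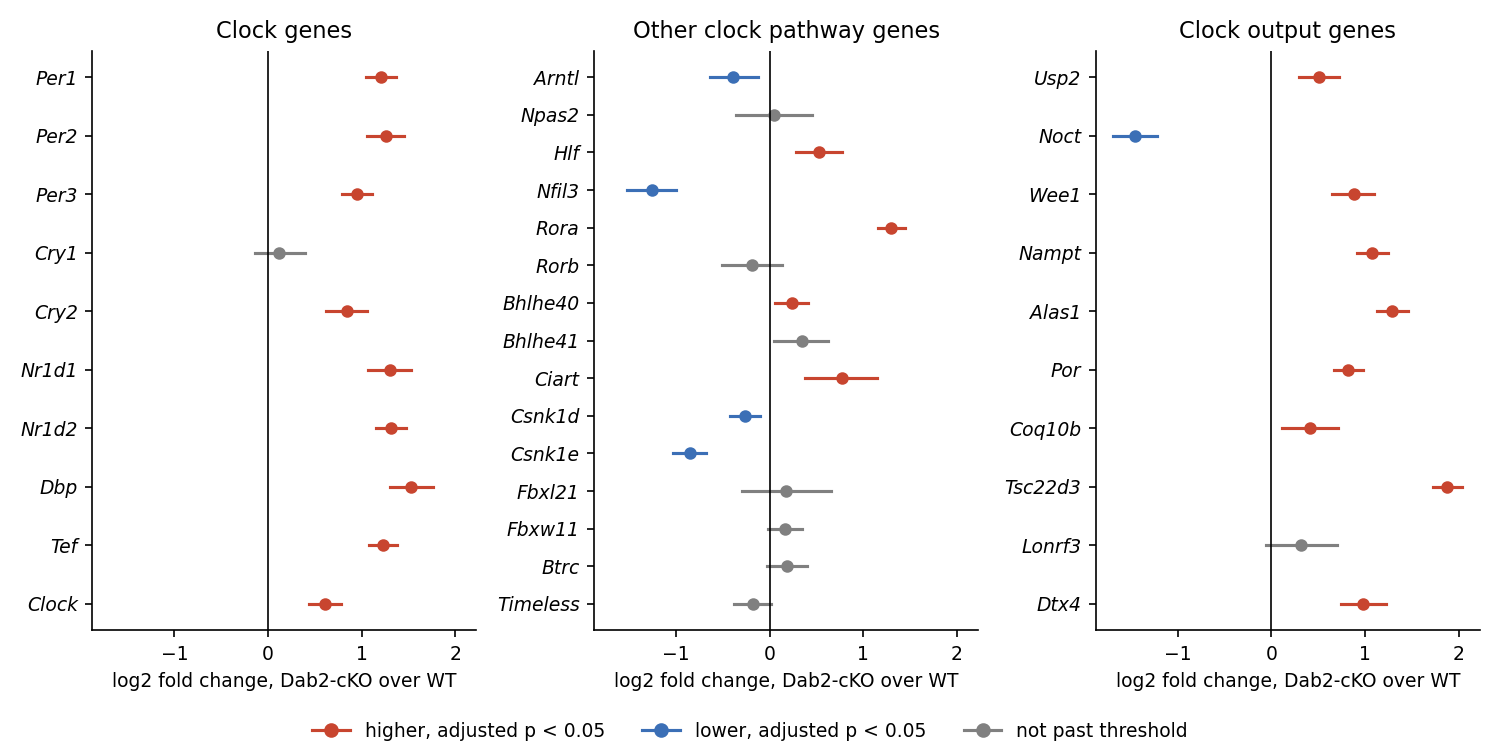
Log2 ratio of Dab2-cKO to WT (fold change) with its 95% interval for the 10 clock genes, 15 other clock pathway genes and 10 clock output genes. Red points are higher and blue points lower at edgeR's adjusted p under 0.05, and 9, 4 and 8 genes of the lists are red, while Nfil3 and Noct lie farthest to the left.

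Genes known as outputs of the clock were counted from a list of 10. Of these 8 were higher, 1 was lower and 1 did not pass the test, with a median log2 fold change of 0.85. The shares over all genes were 16.8% higher and 11.5% lower, and 37.6% and 22.8% among genes averaging 100 or more. Tsc22d3, a leucine zipper gene that glucocorticoids also induce, had 404, 516 and 467 normalized counts in WT and 1726, 1721 and 1686 in Dab2-cKO, a log2 fold change of 1.88 (SE 0.08, adjusted p by edgeR = 2.46e-32). Por, which encodes the cytochrome P450 reductase, was at 518, 650 and 611 in WT and 1023, 1126 and 1010 in Dab2-cKO (log2 fold change 0.82, SE 0.08, adjusted p by edgeR = 3.33e-14). The gene that was lower, named after its value was seen, was Noct (nocturnin), a strongly rhythmic gene in many tissues, with 333, 349 and 380 in WT and 130, 136 and 123 in Dab2-cKO (log2 fold change -1.46, SE 0.12, adjusted p by edgeR = 3.11e-17). Lonrf3 did not pass, at 73.9 ± 13.2 and 91.7 ± 6.74 normalized counts (SD, n = 3 each).

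Ratios of raw counts within a library do not depend on the scaling between libraries. Per1 had 1.95, 1.85 and 2.12 times the counts of Per2 in the WT libraries and 2.12, 1.87 and 1.74 times in Dab2-cKO. The mean log2 ratio differed by -0.05 (exact permutation test, 2-sided, p = 0.7, adjusted over 4 ratios 0.933). Nr1d1 had 0.375, 0.334 and 0.333 times the counts of Nr1d2 in WT and 0.336, 0.302 and 0.401 times in Dab2-cKO, a difference of -0.01 in the log2 ratio (exact permutation test, p = 1, adjusted 1). In both pairs the groups overlapped, and the paralogs were counted in nearly equal proportion in both groups.

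The ratio of Cry1 to Cry2 was 0.653, 0.515 and 0.814 in WT and 0.533, 0.313 and 0.375 in Dab2-cKO. Its log2 value was lower by 0.71 on average, and WT replicate 2 was below Dab2-cKO replicate 1, so the groups overlapped (exact permutation test, p = 0.2, adjusted 0.4). The ratio of Dbp to Tef was 0.253, 0.283 and 0.219 in WT and 0.299, 0.346 and 0.286 in Dab2-cKO, higher by 0.31 on the log2 scale with no overlap (exact permutation test, p = 0.1, the smallest possible here, adjusted 0.4). None of the 4 ratios passed a threshold of 0.05, which 3 against 3 libraries cannot reach. Ratios of opposing factors were added after the values were seen and carry no test. Dbp had 0.569, 0.532 and 0.460 times the counts of Nfil3 in WT and 3.04, 4.20 and 3.69 times in Dab2-cKO, and Nr1d1 had 0.663, 0.671 and 0.633 times those of Arntl in WT and 2.52, 1.90 and 1.98 times in Dab2-cKO. In both ratios the groups were farther apart than in any pair of paralogs, and since no length enters them they compare libraries, not the levels of the genes.

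**Figure D4:**
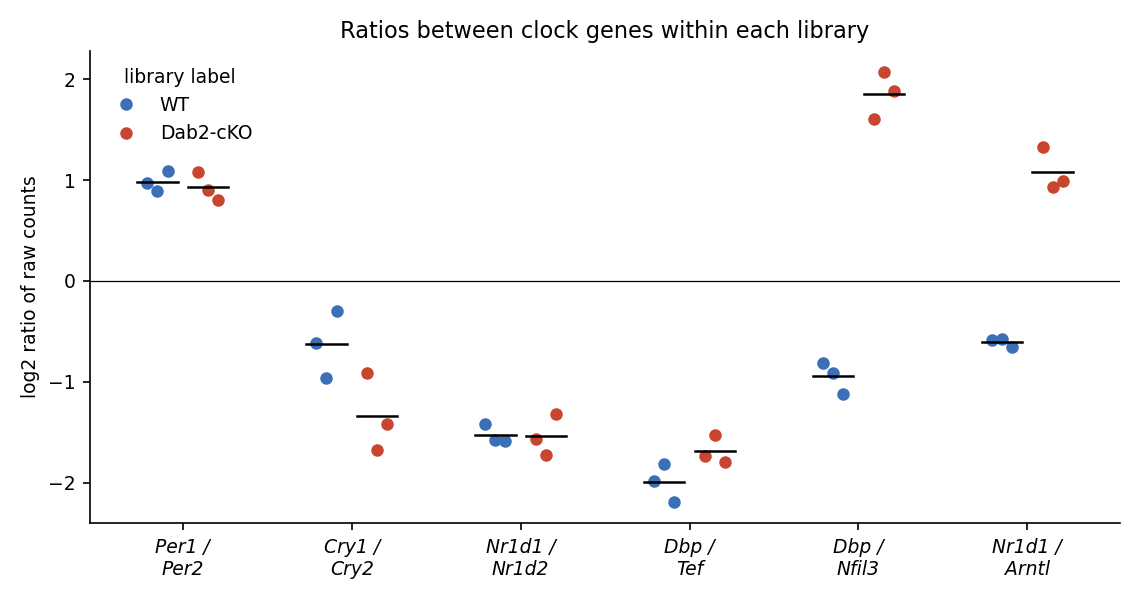
Log2 ratio of raw counts between pairs of clock genes in each of the 3 WT and 3 Dab2-cKO libraries, with a line at each mean. The ratios of Per1 to Per2 and of Nr1d1 to Nr1d2 overlap between groups, while those of Dbp to Nfil3 and of Nr1d1 to Arntl lie below 0 in WT and above 0 in Dab2-cKO.

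The size of the differences depended on the scaling between libraries. The TMM factors were 1.11 to 1.21 in WT and 0.847 to 0.876 in Dab2-cKO, and the 100 most abundant genes took 33.1% to 33.9% and 44.5% to 46.6% of the counts. With library size only, the median of all genes moved to -0.45 and the calls to 2686 higher and 11168 lower, from 5387 and 3682. With upper-quartile scaling the median was -0.17, with 4281 higher and 5561 lower. Relative to the median of all genes with library size only, the log2 fold changes were 1.56 for Dbp, 1.33 for Nr1d2, 1.32 for Nr1d1, 1.28 for Per2, 1.25 for Tef, 1.23 for Per1, 0.98 for Per3, 0.87 for Cry2, 0.63 for Clock and 0.15 for Cry1. The number of clock genes called higher was 8 with library size only, where Clock was lost, and 9 with the other 13 alternatives. Scaled to 6 housekeeping genes, of which 1, Sdha, was itself higher, the log2 fold changes of the 10 genes ran from 0.07 (Cry1) to 1.48 (Dbp).

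**Figure D5:**
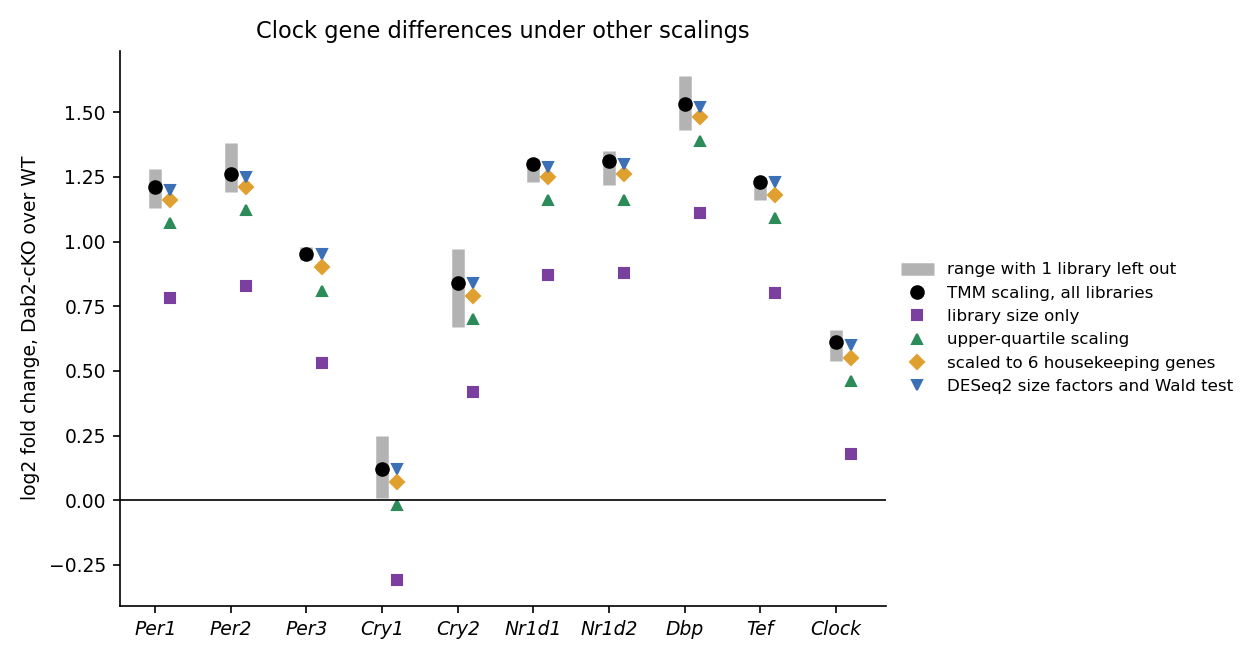
Log2 ratio of Dab2-cKO to WT (fold change) for the 10 clock genes with TMM scaling (black), over the range with 1 library left out (grey bar) and under 4 other scalings. With library size only (squares) Cry1 lies below 0 at -0.31 and the other 9 genes stay above 0, from 0.18 to 1.11.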

How the data were processed

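The authors deposited raw counts per gene for each library. By the submitters' processing notes and the study's methods, reads were trimmed with fastp 0.23.4, aligned to GRCm39 with HISAT2 2.2.1 and counted with featureCounts 2.0.6. The strand setting and annotation release are not given in the sources used here. A second table, the authors' DESeq2 comparison with fold changes and p-values, was not used. The columns named FL-FL were assigned to Dab2-cKO by the series title.

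Counts were analysed in R 4.3.3 with edgeR 4.0.16 (default expression filter, TMM, robust quasi-likelihood test, genotype as the only term) on all genes, after the code was tested on simulated data. Groups were WT and Dab2-cKO (n = 3 each). Limits from counts cover counting error only. Per-gene intervals are at 95%. Positions, exon lengths and exon overlaps came from the GENCODE annotation of GRCm39, and promoter windows from RefSeq (GRCm38.p6).

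The clock genes, the lists of other clock pathway, clock output and housekeeping genes and the cell type markers were chosen with earlier results of these data known. Some items of the pathway list are not reported here. All 10 clock genes, 8 partner factors, the 2 most abundant outputs and Dab2 were to be named. Alternatives were DESeq2 1.42.0, other scalings and filters, a replicate block and each library left out in turn. The hair marker Krt85 was not among the symbols in the table.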

Additional observations from a re-analysis of the deposited data

How the results depend on the processing

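Over 14 alternatives, the calls of Per1, Per2, Per3, Cry2, Nr1d1, Nr1d2, Dbp and Tef kept their direction and passed the threshold in each, and Cry1 passed in none. Library size only gave 2686 genes higher and 11168 lower, and 7 lower and 1 higher among the other clock pathway genes (4 and 4 with TMM), while upper-quartile scaling gave 5561 genes lower. Signs turned with library size only for Cry1 (-0.31), Npas2 (-0.39), Bhlhe40 (-0.19) and Bhlhe41 (-0.09), and with upper-quartile scaling for Cry1 (-0.02) and Npas2 (-0.10). Npas2 was also at -0.01 when scaled to housekeeping genes, at -0.04 with genes under a mean of 50 counts left out, and between -0.13 and 0.35 with 1 library left out. Hlf (0.10) and Ciart (0.34) did not pass with library size only. With 1 library left out, the difference in log2 ratio ranged from -0.13 to 0.01 for Per1 to Per2 and from -0.12 to 0.08 for Nr1d1 to Nr1d2. The causes were not tested. Libraries with the same replicate number correlated at 0.14, -0.05 and 0.10 in their deviations from the group means, so the numbers were not taken as pairs, and not every library correlated best with its own number. The replicate block gave 5347 genes higher and 3620 lower, 9 clock genes among the former. For a gene with no counts, the upper limit (3 counts) was 2.56e-05% to 4.26e-05% of all counts, depending on the library.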
